A study of Mus musculus with 4 samples.

Results

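The 9 genes described here were Lyz2, Apoe, C1qa, C1qb, C1qc, Cd74, H2-Aa, H2-Ab1 and H2-Eb1, out of 17561 genes counted in single CD8+ T cells from mouse BM. They were chosen on measured values: they lead the GzmA+ Tex cluster, one of 8 clusters named by the authors, when its UMIs are set against those of the other cells. The values that chose them are therefore given as a description, with no test. GzmA+ Tex held 571 of 11754 cells, with 212, 119, 83 and 157 cells in libraries 1 to 4.

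Recipient mice on a C57BL/6 background (WT or CRBN transgenic, which allows lenalidomide to act in mouse cells) received BM with T cells from genetically matched donors in a study of immunity to myeloma after SCT. According to the study's methods, recipients were injected with myeloma cells before SCT. They were given αTIGIT or an isotype antibody (cIg) from the day of SCT, and lenalidomide or vehicle from day 14. CD8+ T cells were sorted from the BM on day 28, week 4 after SCT, and 5 mice were pooled into each of 4 libraries: cIg with vehicle, αTIGIT with vehicle, cIg with lenalidomide, and αTIGIT with lenalidomide. The files number the libraries 1 to 4 without a treatment, so the values are given per library, no library is assigned to a treatment, and with 1 library per group there is no test.

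Lyz2, Apoe and C1q are classical transcripts of macrophages. Lyz2 encodes a lysozyme that degrades bacterial walls, Apoe encodes a lipoprotein that carries cholesterol out of macrophages, and C1qa, C1qb and C1qc encode the chains of C1q, the recognition component of the classical complement pathway. MHC class II molecules present peptides to CD4+ T cells: H2-Aa and H2-Ab1 encode the α and β chains of I-A, H2-Eb1 encodes the β chain of I-E (which C57BL/6 mice do not display, for lack of its α chain), and Cd74 encodes the invariant chain that accompanies them to the endosome. Mouse CD8+ T cells are not known for making either group, whereas macrophages, dendritic cells and B cells carry class II, and BM macrophages carry both.

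In the GENCODE M21 annotation of GRCm38, C1qb (ENSMUSG00000036905, chr4:136880129-136886187), C1qc (ENSMUSG00000036896, chr4:136889804-136893065) and C1qa (ENSMUSG00000036887, chr4:136895917-136898803) lie side by side on the minus strand of chromosome 4. H2-Ab1 (ENSMUSG00000073421, chr17:34257689-34269419, plus strand), H2-Aa (ENSMUSG00000036594, chr17:34282744-34287823, minus strand) and H2-Eb1 (ENSMUSG00000060586, chr17:34305867-34316674, plus strand) are neighbours within the MHC on chromosome 17. Lyz2 (ENSMUSG00000069516) is at chr10:117277331-117282321 and Apoe (ENSMUSG00000002985) at chr7:19696109-19699188, both on the minus strand. Reads of Lyz2 could be shared with its near-identical neighbour Lyz1, so its level is uncertain in that respect. Cd74 carries the identifier ENSMUSG00000024610.

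The sequences before the start sites of the C1q and class II genes are shown because members of each group were detected together in the same cells. RefSeq promoters of GRCm38.p6 were given for 6 of the 9 members, and the 250 bases before the start were searched on both strands. The Y box GATTGG, bound by NF-Y in class II promoters, and the PU box GAGGAA, a core of sites for the myeloid factor PU.1, are in capitals. Strings are written 5′ to 3′ on the gene's strand, from chr4:136886201-136886450 and chr4:136892915-136893164 (both minus) and chr17:34287824-34288073 (minus) and chr17:34305617-34305866 (plus).
C1qb: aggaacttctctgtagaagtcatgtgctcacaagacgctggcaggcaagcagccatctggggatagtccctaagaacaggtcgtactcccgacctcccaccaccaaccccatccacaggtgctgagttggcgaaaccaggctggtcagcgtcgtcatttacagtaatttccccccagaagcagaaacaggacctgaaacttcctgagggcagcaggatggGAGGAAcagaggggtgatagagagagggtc
C1qc: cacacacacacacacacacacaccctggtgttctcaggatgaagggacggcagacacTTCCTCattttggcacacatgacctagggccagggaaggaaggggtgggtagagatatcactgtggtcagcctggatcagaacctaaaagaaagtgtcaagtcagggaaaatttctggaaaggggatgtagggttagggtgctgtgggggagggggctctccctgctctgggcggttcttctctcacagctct
H2-Aa: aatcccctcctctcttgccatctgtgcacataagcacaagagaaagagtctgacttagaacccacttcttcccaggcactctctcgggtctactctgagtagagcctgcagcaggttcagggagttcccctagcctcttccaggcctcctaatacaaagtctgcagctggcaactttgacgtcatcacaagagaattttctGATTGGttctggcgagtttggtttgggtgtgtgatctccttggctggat
H2-Eb1: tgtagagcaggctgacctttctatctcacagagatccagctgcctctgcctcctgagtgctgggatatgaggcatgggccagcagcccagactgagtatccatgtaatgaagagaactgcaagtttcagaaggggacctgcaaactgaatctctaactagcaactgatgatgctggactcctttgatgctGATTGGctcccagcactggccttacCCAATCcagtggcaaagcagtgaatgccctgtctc
The Y box began 49 bases before the start of H2-Aa and 60 bases before that of H2-Eb1, which held another on the opposite strand from 35 bases before the start. These letters occur in 14.6% of 32851 promoters of the same length. The PU box began 30 bases before the start of C1qb and, on the opposite strand, 193 bases before that of C1qc, and occurs in 23.3% of promoters. The 6 members had 8 promoter entries, since Apoe has several with different start sites. An Apoe entry held the PU box 250 bases before its start, another 132 bases before its own, and a further entry held neither motif. Lyz2 held neither motif. A further motif, the X box, was searched as well and was found in none of the 8 entries. It occurs in 0.161% of promoters. A match describes these letters alone.

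Libraries 1 to 4 held 15556967 to 38440687 UMIs, and the median cell 7115 to 7669 UMIs. GzmA+ Tex cells were deeper, with a median of 10378 UMIs against 7834 in Tn, and cycling cells were the deepest at 13959.5. The T cell markers Cd3e and Cd8a stood at 1379 and 729 CPM in GzmA+ Tex, against 1289 and 645 CPM in the other 7 clusters, although 30 of the 571 cells had no Cd8a UMI. Of the barcode sequences, 56 occurred in more than 1 library, and 6 GzmA+ Tex cells carried one of them. Levels are in CPM, the UMIs of a gene scaled to all UMIs of the same cells, which are not set per length, so they are compared between clusters and not between genes. Intervals are at the 95% level and cover counting error only.

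Together the 9 genes made up 1925 CPM (1892 to 1959) in GzmA+ Tex and 51.9 CPM (50.5 to 53.3) in the other 7 clusters, a log2 ratio of 5.21. By library the sum stood at 2152, 2058, 1377 and 1778 CPM in GzmA+ Tex, and at 67.4, 35.8, 60.2 and 39.0 CPM in the others, with log2 ratios of 4.52 to 5.84. The groups did not overlap in any library. Cycling cells came next at 111 CPM and TIGIT+ Teff at 96.8 CPM, followed by GzmB+ Teff at 48.9, transitory Teff at 37.0 and TIM-3+ Tex at 36.8 CPM. Tcm and Tn were lowest, at 11.9 and 8.07 CPM. Library ranges were apart between GzmA+ Tex and cycling, between TIGIT+ Teff and GzmB+ Teff, and between TIM-3+ Tex and Tcm, whereas the other neighbours in this order overlapped.

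**Figure D1:**
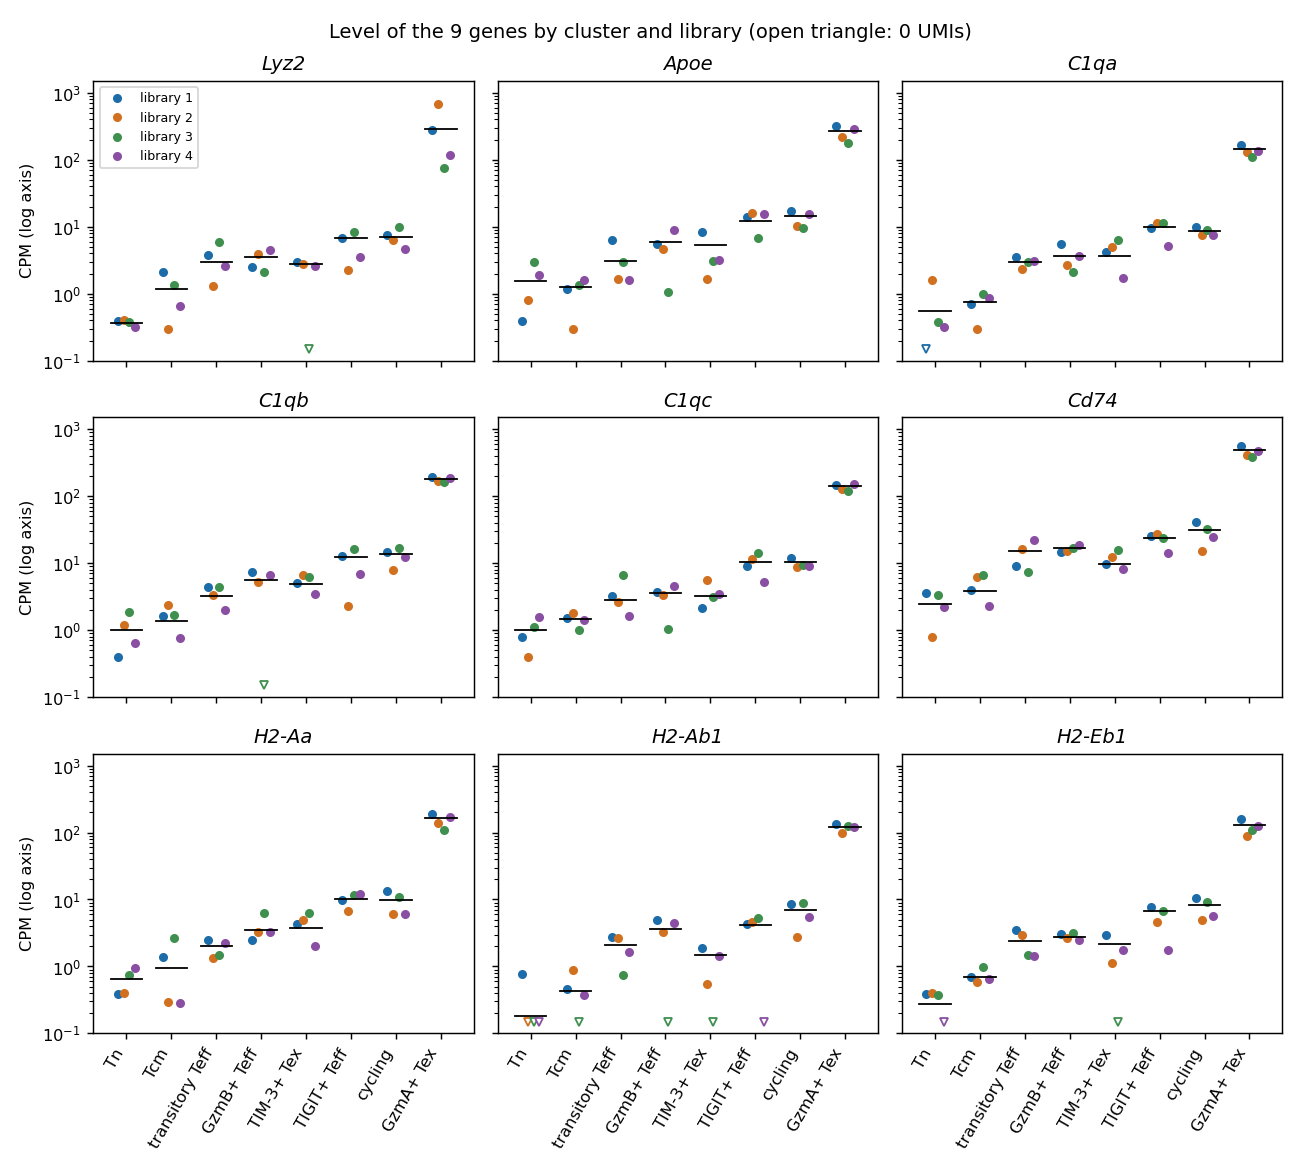
CPM of each gene (log axis) in the 8 clusters, with 1 point per library and a line at the value over the 4 libraries together; open triangles at the foot stand for libraries with 0 UMIs. In every panel the 4 libraries of GzmA+ Tex lie above all libraries of the other clusters, and for Lyz2 they spread from 75.3 to 673 CPM.

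The 3 C1q chains were high in GzmA+ Tex of every library. C1qa stood at 168, 132, 112 and 137 CPM in GzmA+ Tex of libraries 1 to 4, C1qb at 192, 170, 161 and 187 CPM, and C1qc at 147, 127, 119 and 153 CPM. Outside GzmA+ Tex they reached 4.26, 6.22 and 4.84 CPM over the other 7 clusters, and the log2 ratios were 5.08 (4.91 to 5.25), 4.87 (4.73 to 5.01) and 4.86 (4.70 to 5.02). The chains kept similar proportions inside and outside the cluster. Of C1q UMIs in GzmA+ Tex, 30.9% (29.2 to 32.5) were C1qa, 38.9% (37.2 to 40.7) C1qb and 30.2% (28.6 to 31.8) C1qc, against 27.8% (25.6 to 30.1), 40.6% (38.1 to 43.1) and 31.6% (29.3 to 34.0) in the other clusters. The intervals overlapped for each chain.

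Apoe stood at 321, 220, 180 and 293 CPM in GzmA+ Tex and at 3.70 to 9.0 CPM in the other clusters of libraries 1 to 4, with a log2 ratio of 5.39 (5.26 to 5.52). Cycling cells followed at 14.6 CPM and TIGIT+ Teff at 12.2 CPM, with overlapping libraries, and Tcm at 1.25 and Tn at 1.56 CPM were lowest.

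Lyz2 differed from all other members in its spread. It stood at 283, 673, 75.3 and 117 CPM in GzmA+ Tex of libraries 1 to 4, against 4.47, 2.45, 5.10 and 2.40 CPM in the other clusters. The library values spanned log2 ratios of 3.89 to 8.10, around 6.35 (6.19 to 6.52) over all libraries. This spread came from few cells. Of 1897 Lyz2 UMIs in GzmA+ Tex, 5 cells held 1201 UMIs, or 63.3%, and no other cell held more than 25. The same statistic for the 6 richest cells was 64.6% for Lyz2, 14.5% for Apoe, 8.31% for C1q and 18.2% for class II.

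Those 5 cells carried little T cell RNA. They held 416, 272, 212, 167 and 134 Lyz2 UMIs out of 9147, 10239, 18257, 11655 and 12278 UMIs, and came from libraries 2, 2, 1, 1 and 2. None had a TCR call, a C1q UMI or a Cd8a UMI, and together they held 1 UMI of Cd3d, Cd3e and Cd3g, whereas the median GzmA+ Tex cell had 40. Instead they held 63 to 215 UMIs of the monocyte list and 4 to 108 of the neutrophil list, with 36 UMIs of Fn1 (fibronectin) in the cell richest in Lyz2 and 74 of S100a8 (a calcium-binding protein of granulocytes and monocytes) in the next. The study's methods kept cells expressing Cd3e/g and Cd8a, so these cells go against the stated filter. Lack of a Cd8a UMI was not particular to them or to GzmA+ Tex, since 691 of 3418 Tcm and 160 of 1342 Tn cells had none. Cells without a CD3 UMI numbered 6 in GzmA+ Tex and at most 1 in each other cluster.

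In all, 12 of 571 GzmA+ Tex cells had fewer than 5 UMIs of the 3 CD3 genes, a limit set after these values were seen. Without such cells in any cluster, Lyz2 in GzmA+ Tex was 132, 74.1, 76.9 and 117 CPM in libraries 1 to 4, and its log2 ratio was 4.93 (4.74 to 5.12) in place of 6.35. Library 2 was then the lowest in place of the highest. The same step left Apoe at 5.41, C1q at 4.95 and class II at 5.06 on the log2 scale, against 5.39, 4.93 and 5.08 with all cells. The 12 cells held 63.4% of the Lyz2 UMIs of the cluster but 0.280% of Apoe, 0.361% of C1q and 2.51% of class II. The 9 genes together fell to 1744 CPM, with a log2 ratio of 5.07 (5.02 to 5.12).

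**Figure D2:**
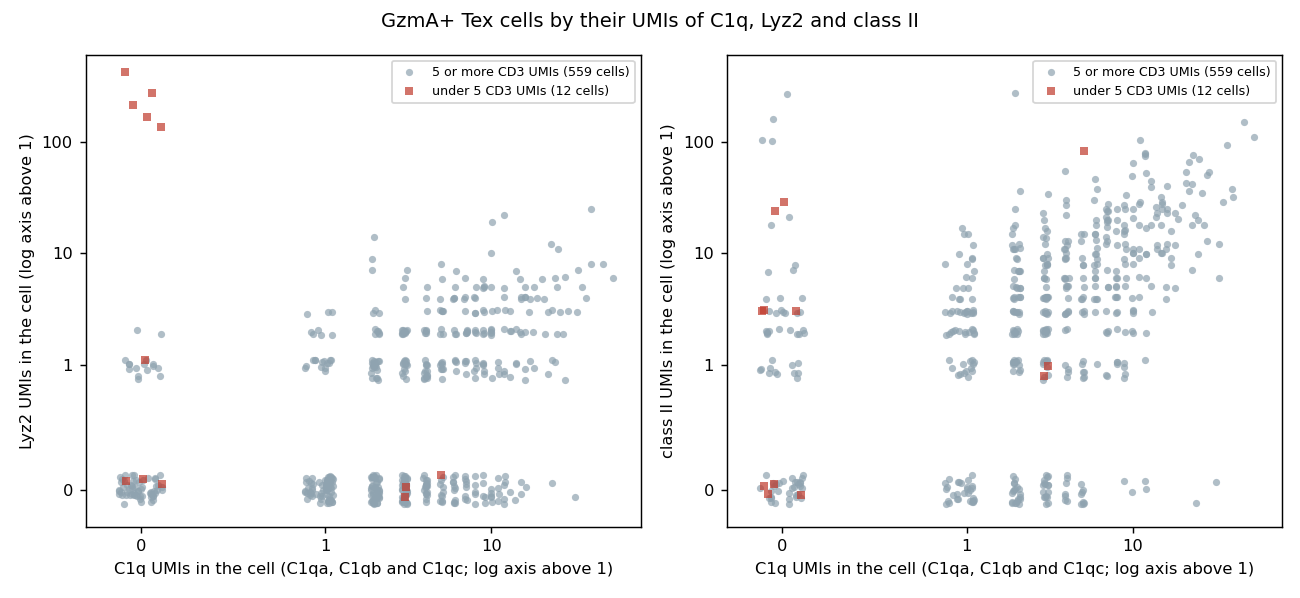
UMIs of Lyz2 (left) and of the 4 class II genes (right) against C1q UMIs in the 571 GzmA+ Tex cells, on log axes above 1 with points jittered; red squares mark the 12 cells with fewer than 5 CD3 UMIs. The 5 cells with over 100 Lyz2 UMIs lie at 0 C1q UMIs, and all are red, whereas class II rises to over 100 UMIs both in cells with C1q and in 4 cells without it.

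Cd74 stood at 559, 408, 387 and 476 CPM in GzmA+ Tex of libraries 1 to 4 and at 19.5, 11.2, 16.9 and 12.5 CPM in the others, a log2 ratio of 4.96 (4.87 to 5.05). H2-Aa stood at 187, 141, 111 and 168 CPM, H2-Ab1 at 133, 98.0, 124 and 122 CPM, and H2-Eb1 at 161, 88.5, 108 and 125 CPM. The log2 ratios of these 3 chains were 5.16, 5.37 and 5.18, and no library of another cluster reached the lowest GzmA+ Tex library. In effector clusters Cd74 stood at 15.4 CPM in transitory Teff and 16.7 CPM in GzmB+ Teff. The share of Cd74 among class II UMIs was 70.4% (64.7 to 75.7) in transitory Teff and 53.9% (52.6 to 55.2) in GzmA+ Tex, with library ranges of 50.8 to 80.6% and 53.1 to 55.5%, which overlapped. Class II made up 46.4% (45.5 to 47.3) of member UMIs in GzmA+ Tex and 51.0% (49.6 to 52.4) in the other clusters, but the libraries of GzmA+ Tex ranged from 35.7 to 53.0% and overlapped those of the others (49.7 to 51.9%). Without the cells of few CD3 UMIs, class II stood at 885 of 1744 CPM of the members in GzmA+ Tex and at 26.5 of 51.9 CPM elsewhere, nearly the same proportion.

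Most GzmA+ Tex cells carried the transcripts. The median cell held 10 UMIs of the 9 genes and 5 of the 9 genes, 96.3% held at least 1 UMI, and 66 cells held all 9 genes. Since deeper cells show more, each cell was also thinned at random to 2500 UMIs. A C1q UMI was then found in 54.1% of GzmA+ Tex cells (49.9 to 58.3), against 5.96% of cycling cells (4.95 to 7.12), 0.790% of Tcm (0.521 to 1.15) and 0.373% of Tn (0.121 to 0.867). Before thinning, C1q was in 85.3% of GzmA+ Tex and 1.94% of Tn cells. Tn should lack these genes, so its share is read as background, and the intervals of GzmA+ Tex lay above it. By library the thinned share was 56.1, 56.3, 49.4 and 52.2%, with overlapping counting intervals.

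The class II share was 57.6% (53.4 to 61.7) of thinned GzmA+ Tex cells and 1.04% (0.571 to 1.74) of Tn cells, with libraries at 63.7, 47.1, 65.1 and 53.5%. Library 2 was lower than library 1 beyond their counting intervals (37.8 to 56.4 and 56.8 to 70.2), and the other libraries overlapped. For single genes the thinned share in GzmA+ Tex ran from 17.2% for H2-Ab1 to 44.1% for Cd74. Lyz2 was found in 22.1% (18.7 to 25.7) and Apoe in 34.7% (30.8 to 38.7) of thinned cells. In Tn, no member exceeded 0.671% (Cd74), and Lyz2 and H2-Eb1 were in 0 of 1342 thinned cells, which allows a share of up to 0.224% at the thinned depth, and in 0.298% and 0.224% of the same cells before thinning. Thus Lyz2 was present at low levels in many GzmA+ Tex cells and at very high levels in 5.

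The members occurred in the same cells more often than if each were spread independently within a library. Over the 36 pairs, the number of thinned GzmA+ Tex cells with both genes was a median of 1.53 times the number under independence, all pairs were above 1, and 34 pairs were above 1 in each of the 4 libraries. Pairs of class II genes had a median of 1.90, pairs of macrophage genes 1.58, and pairs across the 2 groups 1.48. By this ratio H2-Ab1 with H2-Eb1 stood highest, with 45 cells against 18.7 under independence, or 2.41. The ratio is capped by how common a gene is, so the order of single pairs depends on the measure. By the odds ratio within libraries, H2-Aa with H2-Eb1 was higher, at 6.50 against 5.50. The median odds ratios of class II, macrophage and cross pairs were 5.49, 3.02 and 2.40, in the same order. Among C1q chains, C1qa with C1qb had 89 cells against 50.8, or 1.75. The lowest pair was Apoe with H2-Aa, with 62 cells against 50.6, or 1.23, and this pair stood at 0.823 in library 4. Depth was made equal by thinning and libraries were kept apart, but the genes were chosen for this cluster and cells are not replicates. These ratios are therefore a description. Pairs of other genes were not computed, so the counts of pairs above 1 have no background beside them.

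**Figure D3:**
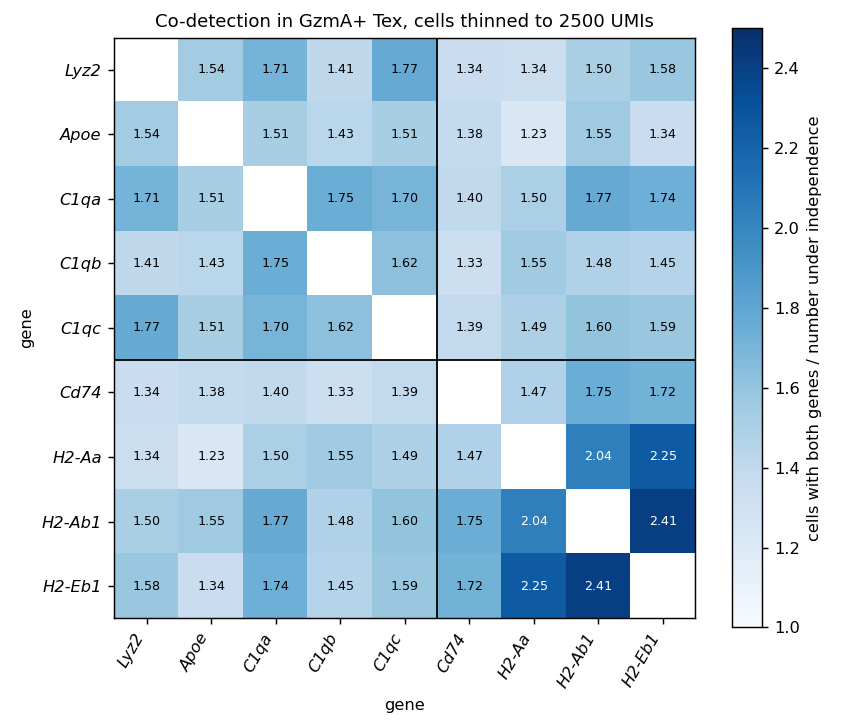
Ratio of the number of GzmA+ Tex cells with both genes to the number under independence within libraries, after thinning to 2500 UMIs, for the 36 pairs (each shown on both sides of the diagonal); lines divide macrophage from class II genes. The darkest squares are the pairs among H2-Aa, H2-Ab1 and H2-Eb1, between 2.04 and 2.41, and no pair is below 1.23.

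Outside GzmA+ Tex joint detections were few. Summed over pairs they came to 235 in cycling cells and to 77 in TIGIT+ Teff, whereas the other clusters held at most 13 and had a median pair ratio of 0. The median ratio in cycling cells was 6.65, with 0 in library 2, and in TIGIT+ Teff 4.72, with 0 in libraries 2, 3 and 4. A ratio is capped by how common a gene is, so those of clusters with rare and with frequent detection are not compared. In cycling cells 41 of 1928 thinned cells had both C1q and class II, against 9.40 under independence; library 2 had 0 such cells. In GzmA+ Tex 211 cells had both, against 178, since most cells there had one or the other. Of 656 cells with at least 2 C1q UMIs, 398 (60.7%) were GzmA+ Tex, 156 were cycling and 39 TIGIT+ Teff. They made up 69.7% (65.8 to 73.4) of GzmA+ Tex, 8.09% (6.91 to 9.40) of cycling cells and 0.149% (0.0181 to 0.537) of Tn.

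How often cells with class II also held a macrophage gene differed between clusters. Of 376 GzmA+ Tex cells with at least 2 class II UMIs, 94.9% also had a UMI of Lyz2, Apoe or C1q, where 91.4% of all GzmA+ Tex cells did. Of 399 such cells in the other clusters, 61.4% did, where 9.94% of all cells did, and most of these were 147 of 196 cycling cells and 43 of 60 TIGIT+ Teff. Each cluster had its own base share, and class II cells lay above it. In cycling cells 75.0% did against 20.9% of all cells of the cluster, and in TIGIT+ Teff 71.7% against 21.3%. In TIM-3+ Tex 57.1% did against 13.1%. In transitory Teff 11 of 47 (23.4%) did against 7.67%, and in GzmB+ Teff 13 of 33 (39.4%) against 11.5%. Cells were not thinned here, so differences in depth between clusters enter these shares. Exceptions stood out: 4 GzmA+ Tex cells without C1q or Lyz2 held 266, 158, 104 and 101 class II UMIs, with 174, 48, 72 and 14 UMIs of Cst3 (cystatin C) and 23, 54, 81 and 20 CD3 UMIs. The last of them held 12 UMIs of Siglech, a gene of plasmacytoid dendritic cells, and 3 of the 4 had a TCR call.

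Within GzmA+ Tex, the 398 cells with at least 2 C1q UMIs had a T cell list (Cd3, Cd8, TCR and other T cell genes) of 8337 CPM against 7632 CPM in the 84 cells with 0, a direction that turned without the cells of few CD3 UMIs, since the remaining 75 cells with 0 stood at 8642 CPM. They were deeper, with a median of 11505 UMIs against 7346. A TCR was called in 38.9% (34.1 to 43.9) and 52.4% (41.2 to 63.4) of them, but calls fell with depth in GzmA+ Tex, from 74.3% of the 191 shallowest cells to 38.9% of the 190 of middle depth and 9.47% of the 190 deepest. With C1q taken after thinning, calls were 82.1% (73.8 to 88.7) against 63.3% (51.7 to 73.9) in the shallowest cells, 40.4% against 37.4% in the middle and 8.16% against 10.9% in the deepest. The intervals of cells with and without C1q overlapped at each depth, but in the shallowest cells only at their edges. There calls were more frequent with C1q, and this difference was not tested.

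The 84 cells without C1q still held class II at 1092 CPM, against 987 CPM in the 398 cells with it. Their median cell had 1 class II UMI, however, and 4 of them held 266, 158, 104 and 101, on which this level largely rests. Apoe was higher with C1q, at 341 CPM against 62.4 CPM in the 75 of the 84 cells with at least 5 CD3 UMIs. In thinned cells, pairs of a C1q chain with a class II gene had co-detection ratios of 1.33 to 1.77. Those of Apoe with a C1q chain were 1.43 to 1.51. Lyz2 stood at 1627 CPM in the 84 cells and at 27.4 CPM in those 75, against 133 CPM in the 398 cells. Only Apoe, C1qa, C1qb and C1qc among members were at least 2-fold higher in each library, a criterion that 0.0594% of 11790 genes met and that for C1q the choice of cells fixed. Outside GzmA+ Tex, all 9 members met it in the 258 cells with at least 2 C1q UMIs against the 10376 with 0, where 0.127% of genes did. Class II stood there at 273 CPM against 13.4 CPM.

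Other transcripts of macrophages were also higher in GzmA+ Tex. Genes were called higher when at least 2-fold, with 10 CPM added, in each of the 4 libraries, which 48 of 11790 genes with at least 50 UMIs met, or 0.407%. The same contrast chose the members, all 9 of which met it. Of 17 other macrophage genes, 10 were called higher. They included Aif1, a cytoskeletal protein of macrophages, at 52.0 against 2.96 CPM, the endosomal Cd68 at 51.7 against 13.1 CPM, the protease Lgmn at 32.5 against 1.11 CPM, the pore protein Mpeg1 at 30.7 against 0.633 CPM, and Fcgr3, an Fc receptor, at 28.7 against 1.48 CPM. The median log2 ratio of the 17 was 1.31, that over all tested genes -0.00. The named genes are among those called, and the list as a whole rose less, to 1326 CPM in GzmA+ Tex against 721 CPM.

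Genes of the macrophages that take up erythroblast nuclei and recycle iron were called in 7 of 11 cases. Hmox1, which opens the heme ring, stood at 87.9 CPM in GzmA+ Tex (libraries 60.7 to 245) against 7.77 CPM, Vcam1, an adhesion molecule, at 50.8 against 1.63 CPM, and Slc40a1, the iron exporter ferroportin, at 32.5 against 1.38 CPM. Spic, a transcription factor of red pulp and BM macrophages, stood at 17.2 against 1.24 CPM. Fth1 and Ftl1, the ferritin chains, were at 1754 and 1598 CPM against 968 and 774 CPM and were not called. Axl, Nr1h3 and Lgmn each stand in 2 of the lists. Erythroid genes themselves were called in 0 of 5 cases, near the 0.407% called over all genes. Hbb-bs stood at 11.2 against 2.32 CPM, too low to be called with 10 CPM added to both sides. The erythroid list summed to 64.1 against 32.3 CPM.

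The partners of the members were mostly not called. Of complement genes, Cfp (properdin) stood at 31.3 against 1.64 CPM and was called, and C3 at 6.59 against 0.0703 CPM was not. With 10 CPM added to both sides, a gene below 10 CPM in GzmA+ Tex could not be called whatever its ratio, which held for C3. Of 9 genes of class II loading and processing, Lgmn alone was called, and Ctss, which trims the invariant chain, stood at 171 against 89.6 CPM, and H2-DMa, a subunit of the peptide exchanger, at 52.9 against 36.8 CPM. None of 8 class II transcription factors was called. Ciita, the master regulator, had 13 UMIs in GzmA+ Tex, or 1.99 CPM (1.06 to 3.41), against 0.0917 to 1.40 CPM in the other clusters, and was also too low for a call. Of 8 lipid partners of Apoe, Nr1h3 (LXRα) was called at 16.1 against 1.22 CPM, while Abcg1 stood at 26.4 against 21.0 CPM.

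**Figure D4:**
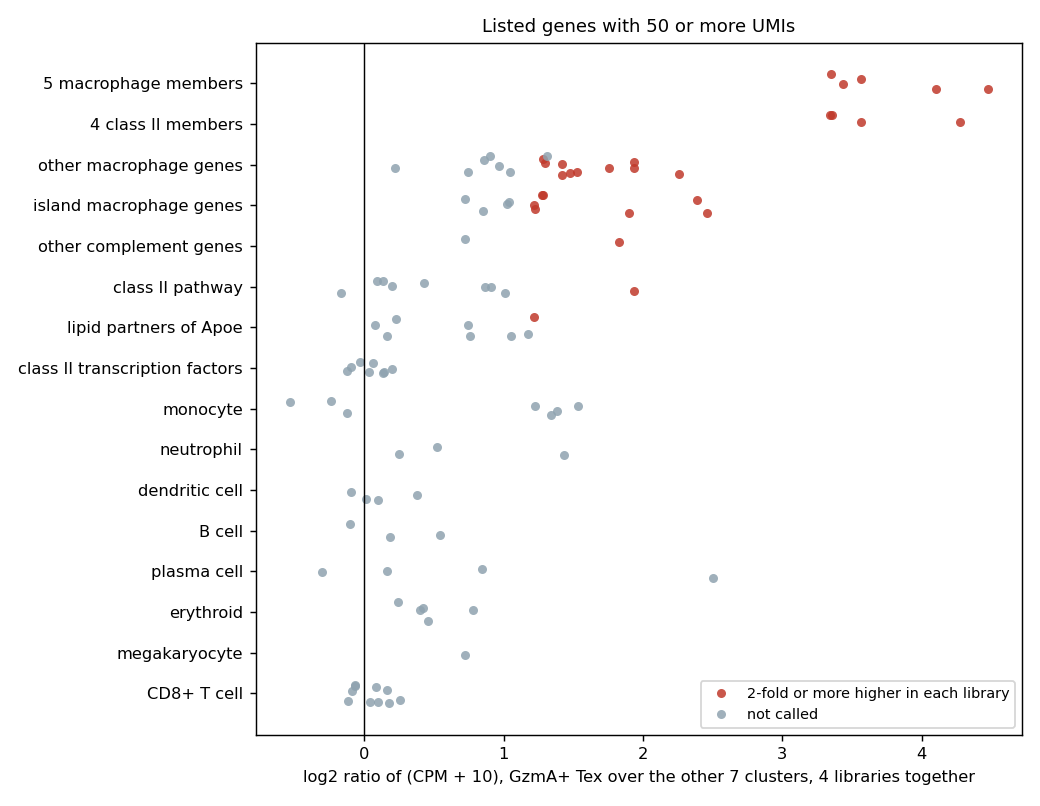
Log2 ratio of CPM plus 10 in GzmA+ Tex over the other 7 clusters for each listed gene with at least 50 UMIs, 1 point per gene; red points were at least 2-fold higher in each library. Red points fill the rows of the members and lie in those of both other macrophage lists, with 1 each in the rows of complement (Cfp), class II processing (Lgmn) and Apoe partners (Nr1h3), and are absent from the rows of monocytes, neutrophils, dendritic cells, B cells, plasma cells, erythroid cells and CD8+ T cells.

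Markers of other cells did not meet the criterion. It called 0 of 7 monocyte, 0 of 3 neutrophil, 0 of 4 dendritic, 0 of 3 B cell, 0 of 4 plasma cell and 0 of 1 megakaryocyte genes. Over all genes the share called was 0.407%, so 0 calls in such short lists are near that share. The tested monocyte genes had a median log2 ratio of 1.23, against 1.31 for the other macrophage genes, and the neutrophil genes one of 0.523. The megakaryocyte list summed to 6.75 CPM in GzmA+ Tex, too low for a call. In their lowest GzmA+ Tex library the whole neutrophil, dendritic and B cell lists summed to 16.3, 26.5 and 14.6 CPM. Few of their genes could thus reach the 10 CPM that a call needs in each library, and their 0 calls say little about such RNA. The monocyte list summed to 769 to 1719 CPM over the libraries of GzmA+ Tex against 1192 to 1871 CPM in the other clusters, mostly from Ly6c2, which T cells also express. The neutrophil list summed to 16.3 to 130 CPM against 7.69 to 11.9 CPM, and to 16.3 to 28.8 CPM without the cells of few CD3 UMIs. The plasma cell list reached 635 CPM in 1 library, where 1 cell held 348 of the 381 Jchain UMIs of the cluster. Without the cells of few CD3 UMIs it was at 132 to 179 CPM. The 10 CD8+ T cell genes summed to 7531 to 9084 CPM against 7363 to 8593 CPM. All 17 listed genes called higher kept the call without the cells of few CD3 UMIs. The part of RNA from macrophages in these values was not tested.

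Over the 32 combinations of cluster and library, the genes outside the lists whose log2 CPM ran most like the summed members were Wfdc17 (r = 0.956), Ccl8 (0.939), Fabp4 (0.914), Cst3 (0.873) and Blvrb (0.844), followed by Fabp5, Psap, Alox5ap, Grn and Glul (0.738 to 0.817). The combinations share libraries and GzmA+ Tex decides the fit, so r is a description. Ccl8, a chemokine, stood at 87.4 CPM in GzmA+ Tex (libraries 65.6 to 119) and at no more than 5.81 CPM in any library of another cluster. Wfdc17, a secreted inhibitor, stood at 71.8 CPM (47.1 to 84.0) and at no more than 8.28 CPM elsewhere.

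Ccl8, Vcam1 and Hmox1 also led the genes that accompanied C1q from cell to cell within GzmA+ Tex. Ccl8 stood at 108 CPM in cells with at least 2 C1q UMIs (libraries 81.1 to 156) and at 21.3 CPM in cells with 0 (0 to 43.2), and the libraries did not overlap. Hmox1 stood at 101 CPM (64.4 to 318) against 42.7 CPM (35.1 to 59.9), also without overlap. For Vcam1, 62.8 CPM (57.9 to 76.6) stood against 21.3 CPM (7.79 to 74.9), which overlapped. The share of all genes whose libraries did not overlap was not computed. Cells with 0 C1q UMIs numbered 84, of which 75 had at least 5 CD3 UMIs, and all 84 were used here. They were also shallower, with a median of 7346 against 11505 UMIs, and the Ccl8 level in them rests on few UMIs. The next were Pclaf (60.8 against 25.3 CPM), Rras2, Trbv16, Gzma, Slbp, Ccl3 and Dnajc1 (75.4 against 41.3 CPM). Gzma itself, which encodes granzyme A, stood at 692 CPM (604 to 752) against 400.0 CPM (74.9 to 1025), with overlap. Trbv16 encodes a TCR segment, and its libraries ranged from 73.5 to 508 CPM in cells with C1q.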

How the data were processed

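Single-cell RNA libraries (10x 5′ kit) and companion TCR libraries were made from sorted BM CD8+ T cells. The authors used Cell Ranger (version 7.00 in the submitters' processing notes, with build mm10), downsampled reads across libraries, and kept cells between 2500 and 25000 UMIs with less than 15% mitochondrial transcripts in which Cd3e/g and Cd8a were expressed, per the methods. The deposited expression values are raw UMI counts per gene and cell, and the mitochondrial share is a fraction computed by the authors. Cluster names, Leiden numbers, library numbers and TCR chains were taken as deposited by the authors. Removal of doublets is not stated in the sources used here, and none were removed.

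The members and gene lists were chosen with earlier results of these data known. All 9 members are named, with up to 4 genes per list by highest CPM in GzmA+ Tex, the 10 genes outside the lists most correlated with the members over combinations of cluster and library (at least 50 CPM in 1), and the 10 genes with the highest ratio in cells with at least 2 C1q UMIs over cells with 0 (at least 50 CPM in the former). Genes called higher, Spic, Hbb-bs, C3, Ciita, Jchain, Fn1, S100a8 and Siglech are named beyond that rule and were chosen after their values were seen. Symbols came from GENCODE M21.

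CPM was a gene's UMIs summed over cells and scaled to all UMIs in those cells. Intervals at 95% were exact Poisson for CPM, conditional binomial for ratios and Clopper-Pearson for shares, and a count of 0 was given a limit of 3 counts. Cells were thinned without replacement to 2500 UMIs with seed 7, and 0 cells were shallower. Co-detection was compared with independence within libraries. No p-value was computed. The calculations ran in Python (version 3.11.15), using matplotlib 3.10.9, pandas 2.3.3, scipy 1.17.1 and numpy 2.4.6, and were tested on simulated data. Alternatives changed the denominator, depth, cluster labels, weights, thresholds and cells, and left out each library.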

Additional observations from a re-analysis of the deposited data

How the results depend on the processing

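The level of the members in GzmA+ Tex over the other clusters, a log2 ratio of 5.21, was 5.73 with cells thinned to 2500 UMIs, 5.49 without the top 1% of cells of each cluster, 5.07 without cells with under 5 CD3 UMIs, and 5.09 to 5.37 with each library left out. The share of GzmA+ Tex cells with C1q, 54.1% after thinning, was 85.3% without thinning, 29.2% with at least 2 UMIs required, and 52.9 to 54.9% with each library left out. The median co-detection ratio of 1.53 was 1.19 without thinning, 1.65 with at least 2 UMIs required and no thinning, and 1.52 to 1.57 with each library left out. The top 1% of cells (118) held 43.0% of C1q UMIs, 51.3% after thinning, 8.31% among GzmA+ Tex cells alone, and 40.7 to 45.2% with each library left out. Of 77 listed genes, 17 were higher in GzmA+ Tex, against 2 with a 4-fold limit (13 of all genes), 32 with 1 CPM added (135 of all genes) and 17 to 19 with each library left out. Of 90 values of single members under the alternatives, 59 stayed within the counting interval, 31 moved and 0 changed sign, between 4.66 and 6.62. Lyz2 moved most, to 4.93 without cells with under 5 CD3 UMIs and to 5.65 without library 2, which holds 3 of the 5 cells richest in it. The CD3 limit and the leave-one-out counts of listed genes were added after seeing the data. No paired analysis was possible because each group is 1 library and the library numbers carry no treatment. In clusters other than GzmA+ Tex, cycling and TIGIT+ Teff, few UMIs limit any statement on co-detection.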

Other observations

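Cells with fewer than 5 CD3 UMIs were most frequent in TIGIT+ Teff, with 48 of 816 cells (5.88%), but these held 8 member UMIs in all and 0 of Lyz2. The 38 such cells of 1928 cycling cells held 12 member UMIs. In GzmA+ Tex the 12 such cells held 1364 member UMIs.

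In 1 GzmA+ Tex cell of library 3 with 5739 UMIs, 348 UMIs were Jchain, the joining chain of secreted antibodies, and 29 were class II, with 1 CD3 UMI. A pair of cells with Siglech and few CD3 UMIs, in libraries 1 and 3, held 9 and 14 Siglech UMIs and 3 and 24 class II UMIs. None of these 3 cells had a C1q or Lyz2 UMI or a TCR call.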
